A study of Penicillium oxalicum with 6 samples.

Results

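The genes described here are putative transcription factor genes of the filamentous fungus Penicillium oxalicum, other than a set of regulators of cellulase genes and conidiation. They were taken from the paper's supplementary list of 1114 genes that differed between a mutant lacking the MAP kinase kinase gene PoxMKK1 and its background strain. In that list 38 genes carry an entry for a transcription factor class. Of these, 8 genes were left out by the rule (PoxCxrB, PoxClrB, PoxRfxA, PoxPacC, POX01118, PoxBrlA, PoxAbaA and PoxFlbD), and the other 30 of the 9834 genes in the data are the subject here. Genes entered that list through the ratio of mean FPKM between the same 6 libraries, so the direction and size of each difference below were used to choose the genes. Fold changes of the 30 genes are therefore descriptions, and counts past a threshold support nothing about the genes as a set.

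The study compared ΔPoxMKK1, in which PoxMKK1 (POX07948) is replaced by a G418-resistance cassette, with ΔPoxKu70. Both strains lack PoxKu70, a gene of non-homologous end joining that was replaced by a hygromycin resistance gene in wild-type HP7-1, so ΔPoxKu70 is the background strain and not the wild type. Mycelia of both strains were grown on glucose and then moved to 2% Avicel, a microcrystalline cellulose, for 24 h, and messenger RNA of 3 libraries per strain, named F, S and T, was sequenced. The files give an expected count, an estimate of the reads of a gene, and an FPKM value, the number of fragments scaled to gene length and library size.

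Transcription factors bind short DNA motifs near genes and recruit or block the machinery that copies them into RNA, and a MAP kinase cascade passes signals from the cell surface to such proteins by phosphorylation. In filamentous fungi the largest family is that of the Zn2Cys6 proteins, whose zinc cluster of cysteines contacts DNA. Many Zn2Cys6 regulators act on nutrient use or on a single cluster of secondary metabolite genes that lies beside them, while C2H2 zinc finger proteins often act more widely, for example in carbon repression, pH response and conidiation. Conidiophores, the stalks that bear the asexual spores, are formed under a cascade in which BrlA and AbaA are central regulators in Aspergillus and Penicillium species.

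Total expected counts were 13713826 to 13865205 per library in ΔPoxMKK1 and 13687087 to 14042791 in ΔPoxKu70, so depth differed little. The deleted gene had 0.08, 0.04 and 0.00 FPKM in libraries F, S and T of ΔPoxMKK1, against 27.4, 25.0 and 32.3 FPKM in ΔPoxKu70. The mycelia of the mutant carried more RNA of conidiation regulators, with PoxBrlA at 379 to 460 FPKM in ΔPoxMKK1 and 5.38 to 42.2 FPKM in ΔPoxKu70, and PoxAbaA at 87.8 to 105 FPKM in ΔPoxMKK1 and 3.32 to 4.40 FPKM in ΔPoxKu70. Their part in the values of the 30 genes was not tested. In bulk mycelium more cells of a kind, such as conidiophore cells, and more RNA per cell cannot be told apart.

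The class of each gene was checked against its InterPro domain entries. The 30 genes comprise 13 Zn2Cys6 genes, 7 C2H2 zinc finger genes, 2 genes of a winged helix class, and 1 gene each of the bZIP, p53-like, Homeodomain-like, Myb, HMG, Lambda repressor-like, Negative transcriptional regulator and TFIIIS classes. All 7 C2H2 genes hold the C2H2 zinc finger entries. Among the Zn2Cys6 genes, POX03380, POX04193, POX07747 and POX09139 hold the fungal transcription factor domain (IPR007219) and no entry for the zinc cluster itself (IPR001138). For some genes the entries go further than the class or against it. POX04227 and POX09469 hold O-methyltransferase entries (IPR001077, IPR016461) beside the winged helix entry, a fold that is also part of plant and fungal O-methyltransferases. POX05436 holds both entries of cyanase (IPR003712, IPR008076), an enzyme that breaks down cyanate and whose N-terminal domain has the lambda repressor fold. POX06701, classed as TFIIIS, holds the TFIIS-type zinc finger and RNA polymerase M subunit entries (IPR001222, IPR001529), which are found in small subunits of RNA polymerases as well as in elongation factor TFIIS. These 4 genes are called here by their identifiers. The paper nonetheless names POX09469, along with POX09124, as a known regulator of plant polysaccharide-degrading enzyme genes, and what these entries mean for that role was not tested.

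Of the 30 genes, 15 were higher and 15 lower in ΔPoxMKK1, and all 30 passed the filter on low counts. Values did not overlap between the strains in 29 genes, beside 59.0% of the 8749 genes tested. A gene was past the threshold where edgeR's quasi-likelihood test gave an adjusted p (Benjamini-Hochberg) under 0.05 and the log2 fold change, up or down, was 1 or more. This held for 26 of the genes, beside 19.8% of all tested genes. These were 12 genes higher in ΔPoxMKK1 (10.8% of all genes) and 14 lower (8.93% of all genes). Because the genes were selected on this contrast, nothing is read from these counts. The median log2 fold change was 1.40 over the genes higher in the mutant and −1.49 over those lower, while that of all tested genes was 0.01. None of the 30 genes had a fractional count, so none had reads that the counting divided among genes.

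**Figure D1:**
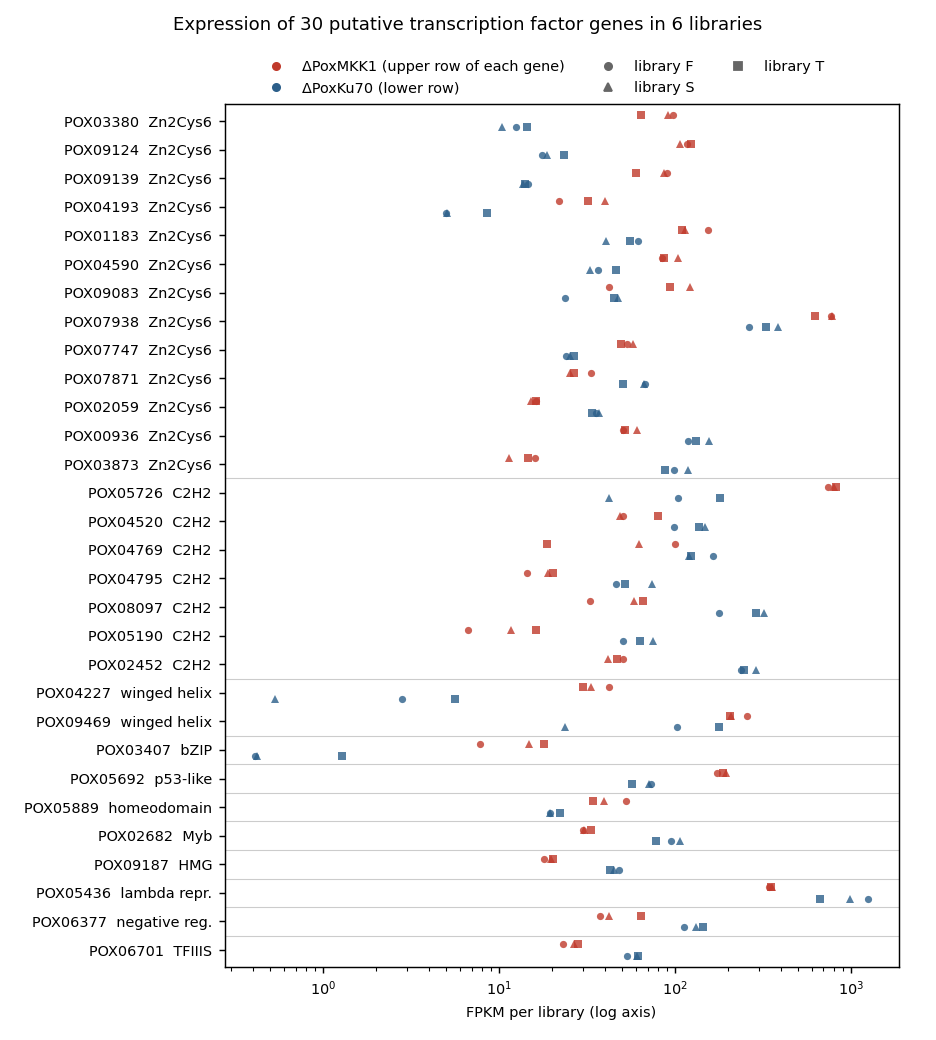
FPKM of the 30 genes in each library on a log axis, grouped by class, with ΔPoxMKK1 in the upper row and ΔPoxKu70 in the lower row of each gene and libraries F, S and T as circles, triangles and squares. POX09083 is the gene whose values overlap between the strains, POX03407 has the lowest mean FPKM in ΔPoxKu70 (0.70) and POX05436 the highest (971).

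The Zn2Cys6 genes divided into 9 that were higher and 4 that were lower in ΔPoxMKK1. The group higher in the mutant was led by POX03380, POX09124, POX09139 and POX04193, all low in ΔPoxKu70. POX03380 had 97.0, 91.5 and 63.9 FPKM in libraries F, S and T of ΔPoxMKK1, against 12.5, 10.4 and 14.4 FPKM in ΔPoxKu70 (log2 fold change 2.70, SE 0.20). POX09139 had 90.6, 87.3 and 60.0 FPKM in ΔPoxMKK1, against 14.7, 13.6 and 14.1 FPKM in ΔPoxKu70 (2.43, SE 0.17). The levels of this pair ran close together, with POX03380 at 1.05 to 1.07 times POX09139 in the libraries of ΔPoxMKK1 and 0.77 to 1.02 times in those of ΔPoxKu70, and in both genes library T was the lowest of the mutant. Both lack the zinc cluster entry.

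POX09124, which lies 15 gene numbers before POX09139 and holds only the zinc cluster entry, had 117, 106 and 123 FPKM in ΔPoxMKK1 and 17.5, 18.7 and 23.3 FPKM in ΔPoxKu70 (2.48, SE 0.13). POX04193 had 22.0, 39.8 and 32.0 FPKM in ΔPoxMKK1 and 5.01, 5.06 and 8.48 FPKM in ΔPoxKu70 (2.28, SE 0.28). For both genes every mutant library was above every control library, and the 3 mutant values of POX04193 spread more (CV 28.5%) than those of POX09124 (CV 7.22%).

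The remaining 5 Zn2Cys6 genes of this direction were higher by about the fold minimum. POX07938 was the most abundant Zn2Cys6 gene, with 770, 786 and 629 FPKM in ΔPoxMKK1 and 264, 386 and 329 FPKM in ΔPoxKu70 (1.10, SE 0.17). It lies 10 gene numbers from the deleted PoxMKK1, and without library F of ΔPoxKu70 its log2 fold change of 0.97 was under the minimum. POX01183 holds the entries of the aflatoxin regulatory protein family (IPR002409, IPR013700), whose founding member AflR switches on the aflatoxin cluster in Aspergillus. It had 153, 115 and 110 FPKM in ΔPoxMKK1 and 61.4, 40.7 and 55.4 FPKM in ΔPoxKu70 (2.30-fold higher). POX04590, with both the zinc cluster and the fungal domain entry, had 85.0, 104 and 86.9 FPKM in ΔPoxMKK1 and 36.5, 32.8 and 46.0 FPKM in ΔPoxKu70 (2.30-fold higher). The groups did not overlap in any of these 3 genes.

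POX07747 had 53.3, 57.9 and 49.4 FPKM in ΔPoxMKK1 and 24.0, 25.4 and 26.6 FPKM in ΔPoxKu70, the smallest difference past the threshold (1.02, SE 0.10). Its 6 values varied little, but it was at 0.96 without library S of ΔPoxMKK1 and at 0.99 without library F of ΔPoxKu70, both under the fold minimum. POX09083 had 42.0, 123 and 94.3 FPKM in ΔPoxMKK1 and 23.8, 47.4 and 45.0 FPKM in ΔPoxKu70. Library F was the lowest in each strain, so the mutant's F lay below the control's S and T, and the difference (1.10, SE 0.42) missed the threshold by edgeR's quasi-likelihood test (adjusted p = 0.0663). Without library F of ΔPoxMKK1 it was 1.43 and past the threshold (adjusted p = 0.0155, edgeR).

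Of the 4 Zn2Cys6 genes that were lower in ΔPoxMKK1, POX03873 stood lowest among all 30 genes by fold change. It had 16.0, 11.3 and 14.6 FPKM in ΔPoxMKK1, against 98.8, 118 and 87.9 FPKM in ΔPoxKu70 (−2.93, SE 0.18), an 86.3% lower mean. The others lay between −1.17 and −1.38. POX00936 had 50.7, 60.8 and 51.7 FPKM in ΔPoxMKK1 and 119, 156 and 132 FPKM in ΔPoxKu70 (−1.38, SE 0.13).

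POX02059 carries 1 of the aflatoxin regulatory entries (IPR002409) together with a further fungal transcription factor domain (IPR021858). It had 16.3, 15.2 and 16.2 FPKM in ΔPoxMKK1 and 35.5, 37.3 and 33.8 FPKM in ΔPoxKu70 (−1.22, SE 0.09). It was thus opposite in direction to POX01183, the other gene with that entry, and among the least variable genes of the 30 (CV 3.86% in ΔPoxMKK1 and 4.90% in ΔPoxKu70). POX07871 had 33.4, 25.5 and 26.7 FPKM in ΔPoxMKK1 and 67.2, 66.5 and 50.6 FPKM in ΔPoxKu70 (−1.17, SE 0.17).

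Of the 7 C2H2 genes, 6 were lower in ΔPoxMKK1 and 5 of these were past the threshold. Since the genes were selected on this contrast, no difference between classes is read from this. C2H2 genes outside the 30 went both ways, with log2 fold changes of −1.97 for PoxCxrB and 3.95 for PoxBrlA. PoxPacC (0.95) was higher without passing the threshold, as was POX07466 (1.08), which lacks a class. POX02452 had 50.6, 41.9 and 46.8 FPKM in ΔPoxMKK1, against 237, 290 and 246 FPKM in ΔPoxKu70 (−2.53, SE 0.14). POX08097 had 32.9, 58.8 and 65.5 FPKM in ΔPoxMKK1, against 178, 320 and 291 FPKM in ΔPoxKu70 (−2.39, SE 0.31). By mean FPKM among all genes they stood at percentiles 67.3 and 70.5 in ΔPoxMKK1 and at percentiles 93.3 and 93.4 in ΔPoxKu70. POX05190 had 6.64, 11.6 and 16.2 FPKM in ΔPoxMKK1 and 50.4, 75.0 and 63.3 FPKM in ΔPoxKu70 (−2.52, SE 0.31), and its mutant mean of 11.5 FPKM was the lowest of the 30 genes. POX04795 had 14.3, 19.1 and 20.2 FPKM in ΔPoxMKK1 and 46.4, 73.9 and 52.4 FPKM in ΔPoxKu70 (−1.75, SE 0.21).

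In POX04795, POX05190 and POX08097 library F was the lowest of its strain in both strains, while every mutant value was below every control value. The same held for PoxCxrB, a C2H2 regulator of cellulase and xylanase genes, with 29.5 to 78.4 FPKM in ΔPoxMKK1 and 146 to 265 FPKM in ΔPoxKu70. Over all 30 genes, F was lowest in both strains in 9, or 30.0%, beside 18.6% of all tested genes. POX04520 had 50.7, 48.7 and 79.8 FPKM in ΔPoxMKK1 and 99.4, 149 and 138 FPKM in ΔPoxKu70 (−1.17, SE 0.23).

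POX04769 was the C2H2 gene that was lower without passing the threshold. It had 99.7, 62.6 and 18.7 FPKM in ΔPoxMKK1 and 166, 120 and 123 FPKM in ΔPoxKu70 (−1.24, SE 0.53, adjusted p = 0.0943 by edgeR's quasi-likelihood test). The groups did not overlap, but its mutant libraries spread more than those of any other of the 30 genes (CV 67.2%), with T far below F. The log2 fold change was −0.81 without library T of ΔPoxMKK1 and −1.81 without library F, where it passed the threshold (adjusted p = 0.0402, edgeR).

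POX05726 was the 1 C2H2 gene that was higher in ΔPoxMKK1. It had 741, 799 and 825 FPKM in ΔPoxMKK1, against 104, 42.4 and 182 FPKM in ΔPoxKu70 (2.80, SE 0.48), so that it had the highest mean FPKM of the 30 genes in the mutant, at percentile 97.7 of all genes. The mutant libraries lay within a CV of 5.44%, and the control libraries within one of 63.8%.

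The 2 genes of the winged helix class, both with O-methyltransferase entries, were higher in ΔPoxMKK1 with the same uneven control. POX04227 had 42.2, 33.2 and 30.1 FPKM in ΔPoxMKK1 and 2.79, 0.53 and 5.60 FPKM in ΔPoxKu70, where the counts were 48, 9 and 94 (3.51, SE 0.57). POX09469 had 257, 209 and 205 FPKM in ΔPoxMKK1 and 102, 23.7 and 179 FPKM in ΔPoxKu70. Its groups did not overlap, but control T came close to the mutant libraries, and the difference (1.08, SE 0.60) missed the threshold (adjusted p = 0.177, edgeR's quasi-likelihood test) as it did under every alternative run.

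Among the classes with a single gene, the bZIP gene POX03407 had the largest log2 fold change of the 30 (4.19, SE 0.50). Proteins of the bZIP family grip DNA with a basic region next to a leucine zipper and in fungi often act in stress and nutrient responses. POX03407 had 7.74, 14.7 and 18.0 FPKM in ΔPoxMKK1, against 0.41, 0.42 and 1.27 FPKM in ΔPoxKu70. It was barely detected in the control, with counts of 4, 4 and 12 against 74, 140 and 170 in the mutant, and leaving out control T moved its log2 fold change to 4.88.

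The p53-like gene POX05692 holds the NDT80 DNA-binding entry (IPR024061), named after a regulator of meiosis in Saccharomyces cerevisiae. It had 174, 195 and 188 FPKM in ΔPoxMKK1 and 73.3, 71.4 and 57.3 FPKM in ΔPoxKu70 (1.40, SE 0.14). The Homeodomain-like gene POX05889 had 52.8, 39.7 and 34.3 FPKM in ΔPoxMKK1 and 19.4, 19.6 and 22.2 FPKM in ΔPoxKu70. Its log2 fold change of 0.99 (SE 0.17) was just under the fold minimum, although its adjusted p was 0.00303 (edgeR's quasi-likelihood test), and it passed when library S or T of ΔPoxMKK1 or library T of ΔPoxKu70 was left out.

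POX05889 shares its Homeodomain-like and Myb-like entries (IPR009057, IPR017877) with the Myb gene POX02682, which went the opposite way. POX02682 had 30.0, 30.5 and 33.2 FPKM in ΔPoxMKK1, against 94.6, 107 and 78.2 FPKM in ΔPoxKu70 (−1.64, SE 0.14). The HMG gene POX09187, of a family whose HMG box bends DNA, had 18.0, 19.9 and 20.1 FPKM in ΔPoxMKK1 and 48.2, 45.3 and 42.7 FPKM in ΔPoxKu70 (−1.30, SE 0.10). In both genes the lowest control library was more than 2 times the highest mutant library. The CV of POX02682 was 5.48% in ΔPoxMKK1 and 15.6% in ΔPoxKu70, and that of POX09187 was 6.08% and 5.96%.

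The last 3 genes, all lower in ΔPoxMKK1, include those whose entries point beyond transcription factors. POX05436, with the cyanase entries, was the most abundant of the 30 genes in the control, with 342, 355 and 354 FPKM in ΔPoxMKK1 and 1254, 988 and 670 FPKM in ΔPoxKu70 (−1.54, SE 0.23). The mutant libraries were almost equal (CV 2.03%), whereas control T was 0.53 times control F. POX06377 holds the entry of PAI 2-type negative regulators (IPR007396), named after a Bacillus protein, and a split barrel entry of flavin-binding proteins. It had 37.4, 42.5 and 64.3 FPKM in ΔPoxMKK1 and 113, 131 and 144 FPKM in ΔPoxKu70 (−1.49, SE 0.21). POX06701 had 23.1, 26.7 and 28.0 FPKM in ΔPoxMKK1 and 53.2, 60.6 and 61.8 FPKM in ΔPoxKu70 (−1.24, SE 0.12). In all 3 genes every mutant value was below every control value.

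**Figure D2:**
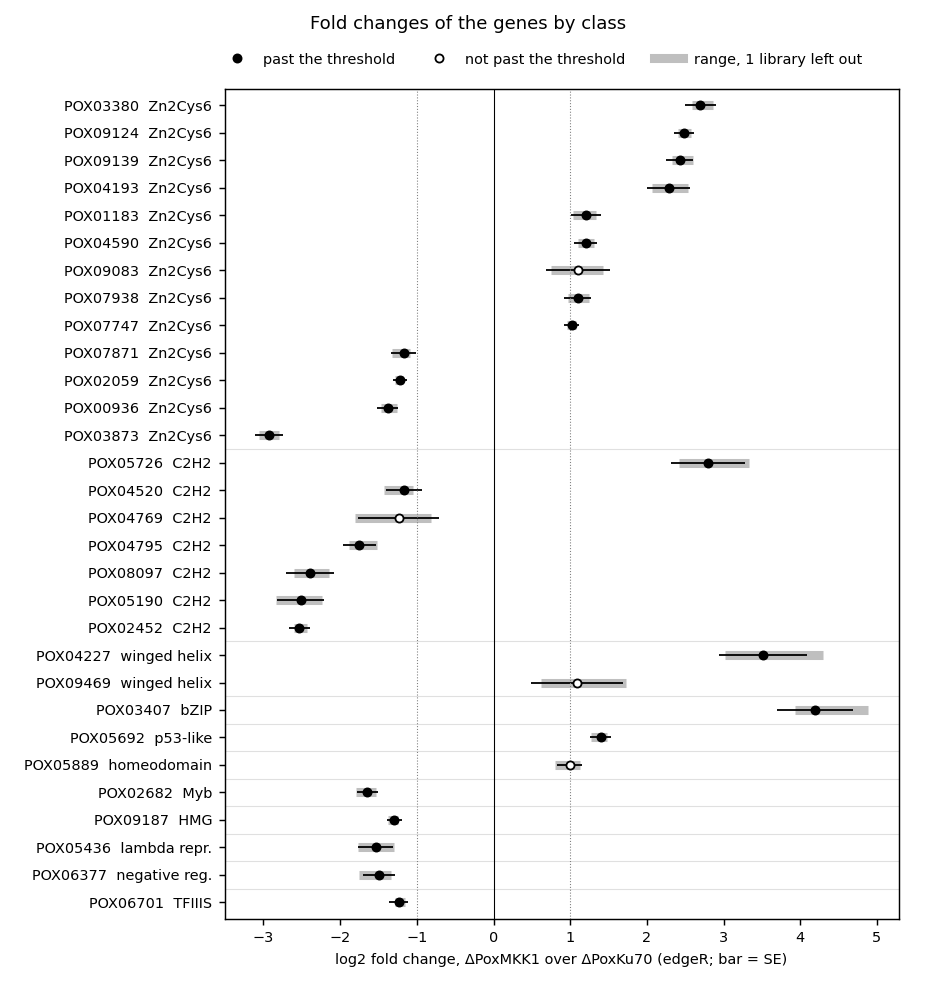
Log2 fold change of ΔPoxMKK1 over ΔPoxKu70 by edgeR with its SE for each of the 30 genes, grouped by class, with open points for the 4 genes not past the threshold, dotted lines at the fold minimum and grey bars for the range when 1 library is left out. Of the Zn2Cys6 genes 9 lie above 0 and 4 below, and of the C2H2 genes 1 lies above and 6 below.

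By level, the genes higher in ΔPoxMKK1 had a median of the mean FPKM of 86.3 in the mutant and 25.3 in the control, and those lower had 31.2 in the mutant and 102 in the control. The median percentile of the 30 genes among all genes was 70.8 in ΔPoxMKK1 and 75.0 in ΔPoxKu70. The lowest was 31.5 in ΔPoxMKK1 and 10.1 in ΔPoxKu70. The list was formed with a probability that, as recomputed here, also weighs the absolute difference in FPKM. These ranks were therefore partly set by the choice of genes. No gene had a mean FPKM under 10 in the mutant, whereas POX03407, POX04193 and POX04227 did in the control. A mean over 100 FPKM was reached by 7 genes in ΔPoxMKK1 and by 11 in ΔPoxKu70.

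At the edge of the rule that formed the list, an absolute log2 ratio of mean FPKM of at least 1 and a probability of at least 0.8, POX05889 (log2 ratio 1.05, recomputed probability 0.814), POX07747 (1.08 and 0.836) and POX02059 (−1.16 and 0.809) lay just inside. POX03407 lay at a recomputed probability of 0.797, just under the limit although the gene is listed. The same was true of PoxRfxA (0.798), so the recomputed values may differ slightly from those of the paper. Classes were known only for listed genes, and among other regulators PoxClrC, named in the study's RT-qPCR primer list, had a log2 ratio of −0.52 and a recomputed probability of 0.737.

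The spread among the control libraries was uneven across the genes. Among the 15 genes higher in ΔPoxMKK1, library T was the highest control library in 10 (66.7%), beside 45.2% of all tested genes and 56.1% of the genes past the threshold and higher in the mutant. Among the 15 genes lower in ΔPoxMKK1, library S was the highest control library in 9 (60.0%), beside 26.6% of all tested genes and 47.0% of the genes past the threshold and lower in the mutant. The median ratio of control T to control S was 1.36 over the higher genes, 0.85 over the lower genes and 1.03 over all tested genes.

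In POX04227, POX09469 and POX05726 control T was 10.6, 7.57 and 4.29 times control S. PoxBrlA had 29.4, 5.38 and 42.2 FPKM in libraries F, S and T of ΔPoxKu70, the same order with T at 7.85 times S. In the mutant the ratio of T to S was 0.91 for POX04227, 0.98 for POX09469, 1.03 for POX05726 and 0.96 for PoxBrlA, so the libraries of ΔPoxMKK1 did not differ in this way. Leaving out control S moved the log2 fold change to 3.01 in POX04227, 0.62 in POX09469 and 2.41 in POX05726. Leaving out control T moved it to 4.30 in POX04227, 1.73 in POX09469 and 3.33 in POX05726. The part of conidiation in this order was not tested. By contrast, POX09139, with a control CV of 3.90%, and POX03380 and POX09124, with T at 1.38 and 1.25 times S, were as clearly higher in the mutant without such a spread in the control.

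**Figure D3:**
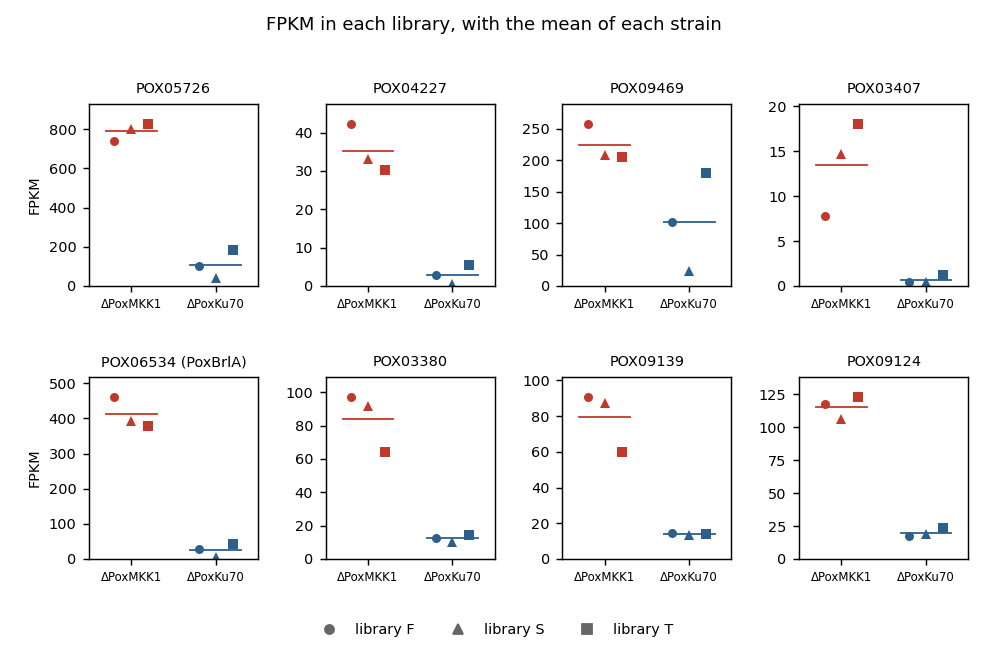
FPKM of 7 of the 30 genes and of PoxBrlA in libraries F, S and T (circles, triangles and squares) of ΔPoxMKK1 on the left and ΔPoxKu70 on the right of each panel, with the mean of each strain as a line. In POX05726, POX04227, POX09469 and PoxBrlA control T is the highest and control S the lowest control library, while POX09139 has nearly equal control libraries.

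Genes of one pathway often lie side by side in fungal genomes together with a regulator, so the genes with neighbouring numbers were described. Gene numbers stand here for order, since no position was available, and a run may cross the end of a sequence. Within 3 gene numbers of the 15 genes higher in ΔPoxMKK1, 30 of 83 tested neighbours (36.1%) were past the threshold and higher as well. Over all genes that were past the threshold and higher, this share was 22.5%. The sets differ, since POX05889, POX09083 and POX09469 among the 15 genes were not past the threshold. These genes had 3, 1 and 5 of the 30 neighbours. Of the 30 neighbours, 5 each lay beside POX01183 and POX09469 and 3 each beside POX04227, POX04590 and POX05889. POX04227 and POX09469 are the genes with O-methyltransferase entries, so the share does not rest on clear regulators alone. Within 3 gene numbers of the 15 genes lower in ΔPoxMKK1, 11 of 74 tested neighbours (14.9%) were past the threshold and lower, beside 20.1% over all genes past the threshold and lower. POX04769, among these 15 genes, was not past the threshold and had no such neighbour. At least 2 such neighbours stood beside 9 of the 15 higher genes, beside 31.5% over all genes past the threshold and higher, and 3 of the 15 lower genes, beside 26.9% over all genes past the threshold and lower.

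The most abundant of these neighbourhoods was that of the AflR-type gene POX01183, the last of 8 consecutive genes, POX01176 to POX01183, that were all higher in ΔPoxMKK1. POX01177 holds the domain entries of a polyketide synthase, the enzyme that builds the carbon skeleton of many fungal pigments and toxins, and POX01176 holds that of scytalone dehydratase (IPR004235), an enzyme of melanin synthesis. POX01177 averaged 1259 ± 61.1 FPKM in ΔPoxMKK1 and 299 ± 61.5 FPKM in ΔPoxKu70 (SD, n = 3 each, log2 fold change 2.01). POX01176 averaged 8566 ± 213 FPKM in ΔPoxMKK1 and 2740 ± 713 FPKM in ΔPoxKu70 (1.58). POX01178 has a metallo-beta-lactamase entry, POX01179 those of a short-chain dehydrogenase, POX01180 and POX01181 an NTF2-like entry shared with POX01176, and POX01182 a methyltransferase entry, with log2 fold changes of 1.62 to 2.41. The regulator itself, at a mean of 126 FPKM in ΔPoxMKK1 and 52.5 FPKM in ΔPoxKu70, was the least abundant gene of the run and had its smallest fold change.

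POX09469 lay in a run of 9 genes, POX09467 to POX09475, in which it had the smallest fold change and was the only gene not past the threshold. POX09467 holds condensation, adenylation and carrier entries, the parts of a non-ribosomal peptide synthetase, and had 52.8, 56.7 and 53.0 FPKM in ΔPoxMKK1 against 1.65, 0.32 and 2.21 FPKM in ΔPoxKu70 (5.22, SE 0.61). The others include genes with entries of cytochromes P450 (POX09468, 3.68, and POX09474, 2.56), a flavin monooxygenase (POX09470, 2.86), a major facilitator transporter (POX09471, 4.03), a DMATS-type aromatic prenyltransferase (POX09472, 2.15) and a methyltransferase (POX09473, 1.86). Such sets of enzymes are typical of secondary metabolite clusters. In all 9 genes of the run control S was the lowest control library.

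POX04227, the other gene with O-methyltransferase entries, was the last of 4 genes, POX04224 to POX04227. POX04224 (cytochrome P450) had 94.4, 79.0 and 68.3 FPKM in ΔPoxMKK1 and 3.85, 2.85 and 4.48 FPKM in ΔPoxKu70 (4.37). POX04225 (class I and II aminotransferase, 3.15) and POX04226 (flavin monooxygenase, 3.49) were higher too, and in the mutant all 4 genes had the order F, S, T from high to low. On the other side of POX04227, POX04230 was past the threshold and lower (−1.17).

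The alike pair POX03380 and POX09139 each stood beside genes with far larger fold changes. POX03379, with the entry of C4-dicarboxylate and malic acid type transporters (IPR004695), averaged 532 ± 135 FPKM in ΔPoxMKK1 and 5.20 ± 2.37 FPKM in ΔPoxKu70 (SD, n = 3 each, log2 fold change 6.62). On the other side, POX03381, with the entry of cysteine dioxygenase (IPR010300), averaged 201 ± 46.4 FPKM in ΔPoxMKK1 and 18.3 ± 5.78 FPKM in ΔPoxKu70 (3.40). POX09138, with a rhodanese entry (IPR001763), a domain of sulfur transfer enzymes, averaged 414 ± 107 FPKM in ΔPoxMKK1 and 14.2 ± 3.61 FPKM in ΔPoxKu70 (4.80). In POX03379 and POX09138, as in both regulators, library T was the lowest of the mutant. Near POX09139, POX09141 was also higher (1.11), whereas POX09136 and POX09137, the last with a carbohydrate esterase class, were lower (−1.14 and −1.37).

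POX04590 stood between POX04589, which has no annotation here, and POX04592, with aldo/keto reductase entries. POX04589 had 694, 665 and 629 FPKM in ΔPoxMKK1 and 17.7, 21.3 and 23.5 FPKM in ΔPoxKu70 (4.93). POX04592 had 78.3, 101 and 73.8 FPKM in ΔPoxMKK1 and 2.18, 1.82 and 2.70 FPKM in ΔPoxKu70 (5.18), and POX04591 was at 2.50. The neighbours differed between strains by far more than POX04590 itself (2.30-fold).

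Beside the Homeodomain-like gene POX05889, POX05887 and the cytochrome P450 gene POX05888 had log2 fold changes of 2.38 and 2.37, and POX05892 of 2.32. Their control libraries followed the uneven order, with POX05888 at 50.5, 12.2 and 86.8 FPKM in libraries F, S and T of ΔPoxKu70, which POX05889 did not share (19.4, 19.6 and 22.2 FPKM). Within 3 gene numbers of POX03407 and POX09124 the called neighbours were low and had no annotation here. They were POX03409 (2.19) and POX03410 (1.29) near POX03407, and POX09121 (3.93) and POX09122 (3.10) near POX09124, with means of 6.42 to 11.7 FPKM in ΔPoxMKK1 and 0.57 to 2.79 FPKM in ΔPoxKu70.

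Farther out from the bZIP gene POX03407, as was seen only after the values were plotted, POX03409 to POX03414 were all past the threshold and higher in ΔPoxMKK1. POX03408, which lies between POX03407 and these genes, was not past the threshold (0.06). POX03412 holds the scytalone dehydratase and NTF2-like entries that POX01176 has, and POX03413 the short-chain dehydrogenase entries that POX01179 has. POX03413 averaged 2414 ± 125 FPKM in ΔPoxMKK1 and 269.6 ± 199.6 FPKM in ΔPoxKu70 (SD, n = 3 each, log2 fold change 3.11). POX03412 averaged 414 ± 21.7 FPKM in ΔPoxMKK1 and 51.8 ± 35.9 FPKM in ΔPoxKu70 (2.94). The tested genes from POX09116 to POX09122, before POX09124, were likewise past the threshold and higher, by log2 fold changes of 1.32 to 3.93.

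Among the genes lower in ΔPoxMKK1, the C2H2 gene POX04520 lay in a run of 6, POX04519 to POX04524, with log2 fold changes of −1.12 to −3.16. The last gene, POX04524, had 62.1, 54.4 and 46.7 FPKM in ΔPoxMKK1 and 573, 462 and 361 FPKM in ΔPoxKu70. POX02452 followed 2 genes of low level, POX02450 (−3.83) and POX02451 (−2.11). POX03873 stood with POX03874 (−1.10) and, 2 gene numbers away, with POX03871, which holds a basic helix-loop-helix entry and had 16.3, 16.9 and 21.3 FPKM in ΔPoxMKK1 and 88.4, 121 and 99.1 FPKM in ΔPoxKu70 (−2.56, SE 0.16). The levels and the difference of POX03871 were close to those of POX03873, and the gene between them was close to 0 FPKM in both strains.

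**Figure D4:**
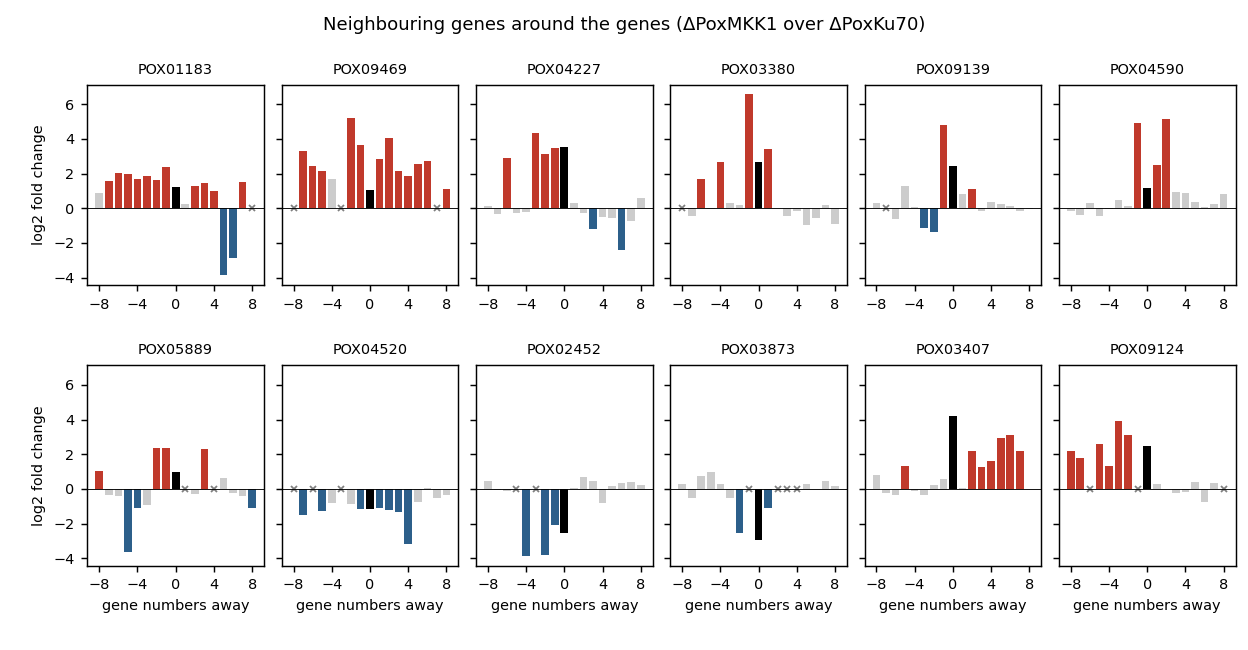
Log2 fold change of ΔPoxMKK1 over ΔPoxKu70 (edgeR) for genes up to 8 gene numbers on either side of the 12 genes with at least 2 neighbours past the threshold in the same direction, each gene itself in black, neighbours past the threshold in red (higher) or blue (lower), others in grey and untested genes as crosses. POX01183 and POX09469 lie in runs of 8 and 9 genes that are higher in ΔPoxMKK1, and POX04520 in a run of 6 that are lower.

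Beyond the 30 genes, 5 genes of the same list carry a domain entry of a DNA-binding or fungal regulator protein without a transcription factor class. POX03871, above, and POX08819, both with a basic helix-loop-helix entry, were lower in ΔPoxMKK1, the second with 488, 666 and 778 FPKM in ΔPoxMKK1 and 2030, 2754 and 2188 FPKM in ΔPoxKu70 (−1.91, SE 0.22). POX04725, the third gene with that entry, was higher, with 183, 246 and 223 FPKM in ΔPoxMKK1 and 78.5, 81.2 and 90.4 FPKM in ΔPoxKu70 (1.32, SE 0.13). POX03669, with the IPR021858 entry that POX02059 also has, was higher by a log2 fold change of 4.80 (SE 0.82), with 19.0, 60.3 and 64.1 FPKM in ΔPoxMKK1 and 0.31, 0.77 and 3.87 FPKM in ΔPoxKu70. The control counts of POX03669 were 7, 17 and 84, and its log2 fold change was 6.35 without library T of ΔPoxKu70 and 4.32 without library F. POX07466, with C2H2 entries, had 24.5, 57.3 and 84.4 FPKM in ΔPoxMKK1 and 10.7, 16.7 and 48.4 FPKM in ΔPoxKu70. Its groups overlapped and its difference (1.08) missed the threshold (adjusted p = 0.192, edgeR's quasi-likelihood test).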

How the data were processed

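RNA of 3 libraries each of ΔPoxMKK1 and ΔPoxKu70 was compared. The authors deposited, for each gene and library, an expected count, which is estimated and not normalized, and an FPKM value normalized by the authors for gene length and library size. The submitters' processing notes name BWA 0.7.10-r789, Bowtie2 2.1.0, RSEM 1.2.12 and DESeq2, with no role. The strand setting of the counting is not given in the sources used here, so overlapping genes are uncertain. The paper calls the 3 libraries of a strain biological repeats, while the labels do not say whether they came from separate cultures, and p-values measure the spread between these libraries. Library totals were within 13687087 to 14042791, and arithmetic on few counts (POX03407) is limited by counting error.

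Expected counts were rounded and tested across all genes in R 4.3.3 with edgeR 4.0.16 (filterByExpr, TMM and the quasi-likelihood F-test), with no block for replicates. P-values were adjusted by the Benjamini-Hochberg method over the 8749 genes tested. Fold changes are edgeR's, and levels are FPKM with their SD or coefficient of variation (CV). The probability of the list's rule was recomputed from FPKM, with 0 set to 0.01, as the share of within-strain differences of all genes that a gene exceeds in both log2 ratio and absolute difference. The paper's list gave identity, class and InterPro entries only. Named were all members of the rule, listed genes with a regulator's InterPro entry and no class, regulators named in the paper, and past-threshold neighbours of genes with at least 2 of them within 3 gene numbers. Members and lists were chosen with earlier results of these data known. Of the RefSeq table's identifiers 0 matched those of the files, so no position or sequence is shown.

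Alternatives were DESeq2 1.42.0, its size factors in edgeR, library sizes alone, no filter, a replicate block, limma 3.58.1 on log2(FPKM + 0.5) and with pseudocounts of 0.1 and 1, no fold minimum, an adjusted p limit of 0.01, the fold minimum on the ratio of mean FPKM, removal of the trend with length, and each library left out. The edgeR and DESeq2 steps were tested on simulated data, and the limma step was not. Python 3.11.15, numpy 2.4.6, pandas 2.3.3 and matplotlib 3.10.9 were used.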

Additional observations from a re-analysis of the deposited data

How the results depend on the processing

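All 30 genes kept the direction of their difference under each of 18 alternatives, and 24 passed the threshold under all of them. The count past the threshold was 26 as reported, 27 with DESeq2, 25 with DESeq2 size factors, 27 with library sizes alone, 26 with no filter on low counts, 26 to 27 with limma on log2(FPKM + pseudocount), and 24 to 28 with 1 library left out, lowest without library F of ΔPoxKu70. Over all genes it was 1728, or 1573 to 1865 with 1 library left out, and 4044 with no fold minimum, since that setting drops a criterion. The share of neighbours past the threshold in the same direction was 26.1%, beside 21.4% over all genes past the threshold. The 30 genes include some not past the threshold, which the comparison set leaves out. The share of 26.1% pools 36.1% for the genes higher in ΔPoxMKK1 and 14.9% for those lower. It was 23.1 to 26.5% with 1 library left out. Within 1 gene number it was 30.2%, close to the 28.1% over all genes past the threshold. Within 2 it was 29.5%, beside 23.6%, and within 5 it was 24.1%, beside 18.5%. With no fold minimum it was 43.3%, and no share over all genes was computed for that setting.

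The calls that moved were those of 5 genes near a limit. POX07747 lost its call under 5 alternatives and POX07938 under 1, all through the fold minimum. POX05889 passed under 9, POX04769 under 3 and POX09083 under 3. Whether the letters F, S and T pair the samples was not clear. Deviations of same-letter libraries correlated at 0.37 for F, 0.04 for S and 0.14 for T. The highest correlation of the mutant library with another letter of the control was −0.09 for F, 0.03 for S and 0.18 for T. Same-letter libraries thus went together for F, but not clearly for S or T. With a replicate block 28 of the 30 genes and 1739 of all genes passed, POX04769 and POX09083 among the 28. Low counts limit POX03407 and POX04227 in ΔPoxKu70, and 3 libraries per strain limit the rest.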

Other observations

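Values follow for 6 further regulator and kinase genes that the study names and that are not in its supplementary list. POX05276 is among them, although the paper's text counts it with the differing regulator genes. PoxClrC, a Zn2Cys6 regulator of cellulase genes, had 48.5, 41.9 and 95.3 FPKM in ΔPoxMKK1 and 76.3, 97.7 and 92.4 FPKM in ΔPoxKu70, and mutant T was level with the control while F and S were below it (log2 fold change −0.58, SE 0.30). Without library T of ΔPoxMKK1 it was −1.03 and past the threshold. PoxAmyR, a regulator of amylase genes, had 23.7, 24.2 and 25.1 FPKM in ΔPoxMKK1 and 29.0, 24.0 and 22.5 FPKM in ΔPoxKu70 (−0.11, SE 0.12). The log2 fold change was 0.35 for POX05276, 0.22 for POX04853, −0.17 for the Hog1 gene POX06496 and 0.06 for POX07588. With all libraries, none of these 6 genes was past the threshold by edgeR's quasi-likelihood test (adjusted p-values of 0.0991 to 0.559, 0 genes with an unadjusted p under 0.05), and none was by DESeq2 or limma (1 gene with an unadjusted p under 0.05 by DESeq2).

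Within 3 gene numbers of POX09083, which missed the threshold, POX09081 holds protein kinase and MAP kinase entries (IPR000719, IPR003527). It averaged 40.0 ± 16.9 FPKM in ΔPoxMKK1 and 13.6 ± 1.44 FPKM in ΔPoxKu70 (SD, n = 3 each, log2 fold change 1.49), and library S was the highest of the mutant in both genes. On the other side, POX09084, with a sugar transporter entry, and POX09085, an alpha-galactosidase gene by its GH27 and GH36 classes, were lower in ΔPoxMKK1 by −2.48 and −3.75. These genes were chosen after their values were seen.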
